A study of Mus musculus with 3 samples.

Results

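The 4 transcripts described here are Cx3cr1, the gene for the fractalkine receptor, and EYFP, CreERT2 and TdTomato, the transcripts of the reporter alleles carried by the mice. They were chosen as the Cx3cr1 entry of every library and the added entries that close the gene list of both reporter libraries, which makes 4 of 28001 entries there and 1 of 27998 in the third library. Myeloid cells sorted from mouse hearts gave 3 single-cell RNA libraries, made with droplet 3′ chemistry and unique molecular identifiers (UMIs, 1 per captured RNA molecule). The steady-state library held macrophages of uninjured hearts, and the day 11 library those of hearts 11 days past a myocardial infarction. The genotype of both was Cx3cr1CreER-YFP/+:R26Td/+. The macrophage and DC library combined macrophages with dendritic cells (DCs) from wild-type mice without injury, so a value that differs between it and the other libraries differs with genotype and sort as well. All mice were C57BL/6, aged 8 to 12 weeks, and all hearts were digested with flavopiridol, an inhibitor of transcription, in the buffer. Macrophages were sorted as live CD45+, CD64+ and CD11b+ cells, and DCs by CD11c and MHC class II in the absence of CD64. No gate used YFP or tdTomato fluorescence as far as the labels state, and the labels do not say whether or when tamoxifen was given, or how many hearts went into a library. Each group is 1 library, so the spread between animals is unknown, no p-value is given, and all intervals are exact 95% intervals that cover counting error only. Levels are UMIs per 1000000 non-reporter UMIs (CPM), summed over cells.

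CX3CR1 is a G protein-coupled receptor for the membrane-bound or shed chemokine CX3CL1 (fractalkine), and it marks monocytes, microglia and many tissue macrophages. In this allele a Cre recombinase fused to a mutant oestrogen receptor (CreERT2) and a yellow fluorescent protein (EYFP) are placed at 1 copy of the Cx3cr1 locus, while the other copy stays intact. Tamoxifen lets CreERT2 enter the nucleus and remove a stop cassette before tdTomato at the Rosa26 locus, and the cell and its progeny then keep making tdTomato, whatever their later Cx3cr1 level. The sources used here do not state where each coding sequence sits relative to the polyadenylation site, nor whether the modified allele still gives RNA that is counted as Cx3cr1. A level of 1 transcript above that of another is therefore not read as a difference in expression, EYFP per Cx3cr1 is compared only between libraries or clusters, and Cx3cr1 UMIs of the alleles cannot be told apart.

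Cx3cr1 (ENSMUSG00000052336) lies on the minus strand of chromosome 9. In the GENCODE vM21 annotation of mm10, the build of the deposited tables, its transcript ENSMUST00000064165.4 runs from 120048683 to 120068296 and has 2 exons. The first exon, from 120068205 to 120068296, is all untranslated. The second, from 120048683 to 120052343, holds the whole coding sequence (120051273 to 120052334) and the long 3′ untranslated region where 3′ chemistry reads the gene. No other annotated gene overlaps the transcript. A further GENCODE model of the gene adds a distant exon at 119901616 to 119901627. Another, ENSMUST00000215016.1, starts at 120069879 and has an untranslated exon from 120068205 to 120068958. The sequence below lies within that exon, so it is upstream of the start site only for the other models. The 250 bases before the start site, at chr9:120068297-120068546 (minus strand, RefSeq, GRCm38.p6), are shown because EYFP and CreERT2 share this sequence with Cx3cr1. Capitals mark the only match to CCAAT, read on the other strand.

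Cx3cr1 promoter: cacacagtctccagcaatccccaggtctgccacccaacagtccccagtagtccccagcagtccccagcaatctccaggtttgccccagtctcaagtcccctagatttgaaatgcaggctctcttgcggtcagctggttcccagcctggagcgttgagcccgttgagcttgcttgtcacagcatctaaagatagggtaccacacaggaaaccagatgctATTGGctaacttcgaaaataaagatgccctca

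CCAAT, searched on both strands, was found in 33.8% of 32851 RefSeq promoter windows of the same length. GGAA, the core of the sites bound by PU.1 and other ETS factors, was matched 2 times on either strand, and 76.8% of windows had at least as many. Neither match sets this window apart from others.

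Macrophages were taken as the cells of clusters with at least 200 CPM of Csf1r that were not named as another cell type from marker lists, and are called the compartment. It held 1691 cells at steady state, 4375 at day 11 and 962 among those sorted with DCs, with median depths of 10714, 8122 and 5374 UMIs. All 9 markers of the macrophage list were detected in each, at a summed 23172, 21911 and 13773 CPM. The 6 measured T and NK cell markers summed to 1.49, 1.37 and 0.508 CPM and the 7 endothelial markers to 57.7, 44.4 and 18.4 CPM. Fibroblast markers summed to 243, 326 and 186 CPM, and cardiomyocyte markers to 91.3, 35.5 and 51.4 CPM. Markers of the dendritic cell types cDC1 and cDC2 summed to 406, 399 and 455 CPM and to 194, 165 and 459 CPM. The compartment was thus not free of RNA listed for other cell types, and its source was not tested. Markers of resident macrophages summed to 4853, 1478 and 1826 CPM, and those of lipid-associated macrophages to 1858, 6829 and 1964 CPM. Between 7 and 11 barcodes were shared by any pair of libraries.

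Cx3cr1 itself was at nearly the same level at steady state and at day 11, while EYFP and TdTomato summed over all compartment cells were lower at day 11. For Cx3cr1 the steady-state level was 229.8 CPM (5102 UMIs; 224 to 236), the day 11 level 227 CPM (9288 UMIs; 222 to 231) and the level of the macrophage and DC library 173 CPM (1025 UMIs; 163 to 184). The day 11 to steady state ratio was 0.986 (0.953 to 1.02), and other ways of choosing or averaging cells gave 0.949 to 1.12, on both sides of 1. EYFP, driven from the same locus, was at 47.4 CPM at steady state (1053 UMIs; 44.6 to 50.4) and 35.6 CPM at day 11 (1457 UMIs; 33.8 to 37.4), a ratio of 0.75 (0.692 to 0.812). Between cells of the same cluster the EYFP ratio was 0.773 (0.653 to 0.914) in cluster 1, but 1.04 (0.831 to 1.29) in cluster 0, the largest at steady state, and the intervals of clusters 6, 8 and 12 (0.799, 0.830 and 0.731) include 1. It was 0.884 (0.728 to 1.07) in cells with RNA of Timd4, a resident macrophage gene, and 0.569 (0.512 to 0.634) in cells without. TdTomato was at 13.4 CPM at steady state (297 UMIs; 11.9 to 15) and 1.56 CPM at day 11 (64 UMIs; 1.2 to 1.99), a ratio of 0.117 (0.0877 to 0.153). CreERT2 was near the limit of detection in both libraries, at 1.08 CPM (24 UMIs; 0.693 to 1.61) and 0.610 CPM (25 UMIs; 0.395 to 0.901), and the interval of its ratio, 0.564 (0.309 to 1.03), includes 1. By value, the day 11 levels of TdTomato and CreERT2 were thus under those of steady state by 1.5-fold or more, and none of the 4 transcripts was 1.5-fold higher. Of 5325 genes with a minimum of 20 CPM on either side, 6.67% were lower and 3.92% higher by this measure, but TdTomato and CreERT2 lie under that minimum, so the shares are not those of genes at their level. Condition and library cannot be told apart, and the part of the differing depths and marker levels in these ratios was not tested.

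**Figure D1:**
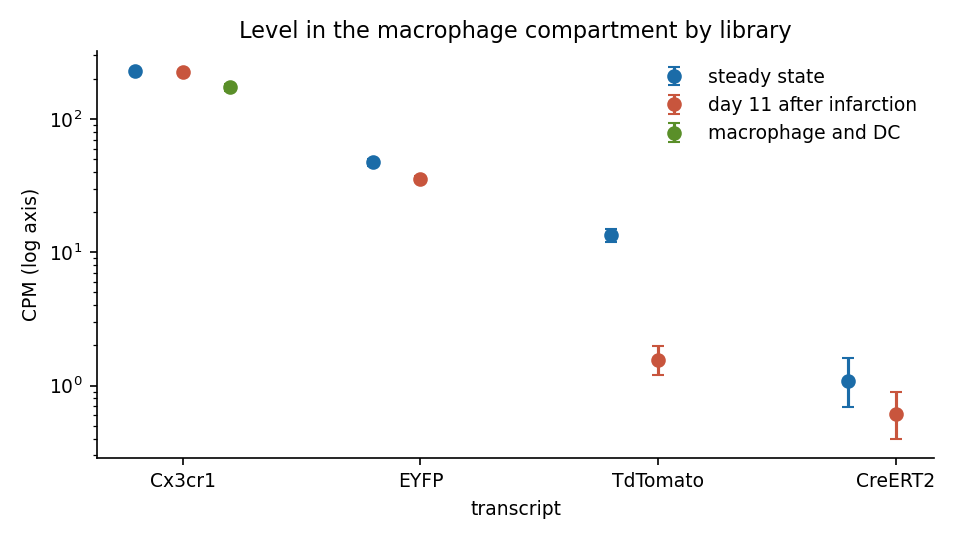
Level of the 4 transcripts in the macrophage compartment, in CPM on a log axis, by library; points are 1 library each and bars exact 95% counting intervals. Cx3cr1 sits at 229.8, 227 and 173 CPM, EYFP and TdTomato are lower at day 11 than at steady state, and the CreERT2 intervals overlap.

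Of the 220 steady-state cells with TdTomato, 185 had 1 UMI, and a few had many more. There, 7 cells with at least 4 UMIs held 18.2% of its UMIs, with up to 10 in 1 cell, whereas no day 11 cell had more than 2. Without those 7 cells the ratio of day 11 to steady state was 0.142 (0.106 to 0.188). The difference was also present between cells of the same cluster in clusters 0, 1 and 8, the last of cycling cells. In cluster 0, which is led by resident macrophage genes such as Lyve1, Folr2 and Timd4, TdTomato was at 14.4 CPM at steady state and 4.30 CPM at day 11 (ratio 0.299; 0.147 to 0.548). In cluster 1, led by the collagenase gene Mmp13, it was at 18.3 and 3.89 CPM (0.213; 0.115 to 0.372), and in cycling cells at 8.40 and 2.74 CPM (0.326; 0.118 to 0.784). In cluster 12 the ratio was 0.358 (0.0675 to 1.23), with 3 UMIs at day 11 against 18 at steady state. Cluster 6 had 0 against 3 UMIs, with an upper bound of 1.02 for the ratio, so both of these intervals include 1. Among cells with Timd4 RNA, a phosphatidylserine receptor of resident macrophages, the ratio was 0.376 (0.214 to 0.621), and among cells without it 0.0749 (0.0524 to 0.105).

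EYFP was compared with Cx3cr1 within each library by the number of EYFP UMIs per 100 Cx3cr1 UMIs. This was 20.6 at steady state (19.3 to 22.1) and 15.7 at day 11 (14.8 to 16.6), so that the difference in EYFP was not matched by one in Cx3cr1. The values were 21.5 and 15.9 without the 10 cells of each library that had most Cx3cr1. Within cluster 1 they were 27.1 (23.8 to 30.7) and 19.6 (17.1 to 22.4), whereas within cluster 0 they were 18 (16.3 to 19.9) and 17.0 (13.6 to 21.0) and their intervals overlap. The lowest values at day 11 were 12.1 (7.92 to 17.8) in cluster 13, with 116 cells, and 12.2 (10.8 to 13.8) in cluster 2, with 811, which is led by Saa3, Ccl8 and Fn1.

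The lower summed Cx3cr1 level of the macrophage and DC library depended on the cells and on how they were weighted. Its ratio to steady state was 0.755 (0.705 to 0.807), and 1.02 as a mean of per-cell CPM. Cluster 11, led by Retnla, Lyz1 and Ear2, held 189 cells of that library, 2 of steady state and 4 of day 11, and had Cx3cr1 at 46.1 CPM (36.8 to 57.1). Without this cluster the library was at 230.2 CPM and the ratio was 1.00 (0.933 to 1.07). Its level of Fcgr1, the gene for the sorted marker CD64, was 11.5 CPM against 139 CPM in cluster 0 of the same library, and that of the macrophage complement gene C1qa 1385 against 8365 CPM. Clusters shared by both libraries differed in both directions, with ratios of 0.671 (0.571 to 0.783) in cluster 0, 1.17 (1.05 to 1.31) in cluster 1 and 1.52 (1.18 to 1.98) in cluster 6, the latter led by Ccr2 and Sirpb1c.

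The share of cells with at least 1 UMI depends on depth as well as level. Of the compartment cells at steady state, 73.4% had a Cx3cr1 UMI (71.3 to 75.5). The share was 70.5% at day 11 (69.1 to 71.8) and 46.7% among those of the macrophage and DC library (43.5 to 49.9). After every cell was thinned to 3000 UMIs, which left out 77 cells at day 11 and 149 of the macrophage and DC library, the shares were 41.3% (38.9 to 43.7), 44.0% (42.5 to 45.5) and 33.3% (30.04 to 36.6). EYFP was found in 39.3 and 25% of cells, and in 13.7% (12.1 to 15.5) and 10.2% (9.31 to 11.1) after thinning. TdTomato was found in 13 and 1.39%, and in 3.72% (2.87 to 4.74) and 0.518% (0.326 to 0.781) after thinning. CreERT2 was found in 1.36 and 0.571% of cells, 23 and 25 in number. At thinning to 500 UMIs, the steady-state shares would be 9.72% for Cx3cr1, 2.57% for EYFP and 0.686% for TdTomato. In most cells, therefore, an absent reporter UMI does not show an absent transcript.

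Cells that should lack these transcripts gave the background. In cDC1-like cells of the macrophage and DC library, a dendritic lineage with little Cx3cr1, 10 of 286 cells had a Cx3cr1 UMI (3.50%; upper bound 6.34) at a median depth of 11725 UMIs, and the level was 3.36 CPM (1.68 to 6.01). In the reporter libraries the B-like cluster 16 had an EYFP UMI in 8 of 28 and 6 of 13 cells (24.6 and 48.6 CPM) and a TdTomato UMI in 4 and 1. It also had the macrophage gene C1qa at 5666 CPM and Csf1r at 803 CPM, so it gives no clean background, and the source of its reporter UMIs was not tested. In the other candidate, cluster 18, 7 of 7 endothelial markers were at least 2-fold higher than in other cells. None of its 11 cells at steady state and 11 at day 11 had an EYFP, CreERT2 or TdTomato UMI, which allows shares of up to 28.5% in each library (upper exact bound) at median depths of 5625 and 4395 UMIs. Cx3cr1 had a UMI in 3 and 0 of these cells. The reporter background could thus not be set close to 0. The day 11 TdTomato share of 1.39% is under that bound, as are the steady-state TdTomato share, the day 11 EYFP share and both CreERT2 shares. Only the steady-state EYFP share is above it, in cells that are deeper than those of cluster 18.

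Cells of a library did not all share 1 level of Cx3cr1. If each cell had held the mean level of its library, 88.3, 81.9 and 60.7% of cells would have had a UMI at their depths, above the 73.4, 70.5 and 46.7% found. For EYFP the same gave 43.1% against 39.3% at steady state and 27.3% against 25% at day 11, a gap that is smaller at lower counts whatever the spread between cells. In 5 groups of equal size by depth, Cx3cr1 at steady state was at 196 CPM in the shallowest cells (177 to 218) and 276 CPM in the deepest (265 to 287). EYFP went the other way, from 68.5 CPM (56.9 to 81.7) to 39.8 CPM (35.7 to 44.1). In the macrophage and DC library Cx3cr1 went from 318 CPM (271 to 371) to 90.9 CPM (78.8 to 104). The day 11 library had a narrower range, 205 to 248 CPM for Cx3cr1 and 31.5 to 43.5 CPM for EYFP. Within cluster 0 at steady state, the shallower and deeper cells, divided at the median, had EYFP at 40.1 (33.8 to 47.1) and 37.1 CPM (33.2 to 41.3), and Cx3cr1 at 149.6 (137 to 163) and 235 CPM (225 to 245).

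**Figure D2:**
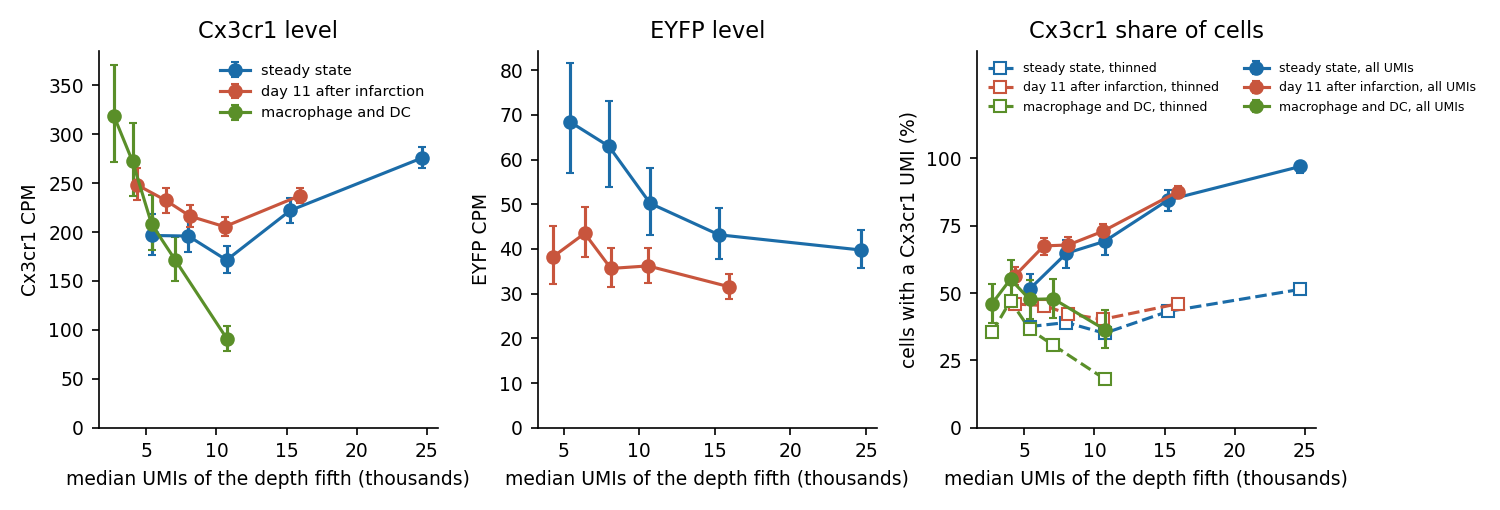
Cx3cr1 level, EYFP level and share of cells with a Cx3cr1 UMI in 5 groups of equal size by depth within each library; x axes give the median UMIs of the group divided by 1000, bars are exact 95% counting intervals, and open squares are shares after thinning to 3000 UMIs. The share before thinning at steady state climbs from 51.6 to 97.0% with depth, while the thinned share stays between 35.1 and 51.4%.

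EYFP was higher in cells with more Cx3cr1, in both libraries. Cells were grouped into those with no Cx3cr1 UMI and 4 groups of equal size of the rest, by Cx3cr1 UMIs per non-reporter UMIs. At steady state EYFP was at 31.6 CPM (26.3 to 37.7) in the 449 cells with no Cx3cr1 UMI. It was at 31.6, 41.5, 56.5 and 74.7 CPM (66.8 to 83.3) from the lowest to the highest of the 4 groups, whose Cx3cr1 levels were 89.0, 184, 303 and 555 CPM. The highest group was 2.36-fold above the cells with none (1.92 to 2.93). At day 11 EYFP was at 20.5 CPM (17.8 to 23.5) in the 1292 cells with no Cx3cr1 UMI and at 28.5, 36.5, 42.2 and 58.2 CPM (52.6 to 64.2) in the 4 groups, a ratio of 2.84 (2.39 to 3.38). EYFP thus did not reach 0 where no Cx3cr1 was counted. Median depths of these sets of cells ran from 8063 to 13291 UMIs at steady state and from 7051 to 9916 at day 11. Among cells with 5000 to 15000 UMIs the steady-state ratio was 3.07 (2.36 to 4.01).

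By the same groups, TdTomato at steady state was at 13.3 CPM (9.90 to 17.4) in cells with no Cx3cr1 UMI and at 13, 13.6, 15.4 and 11.5 CPM in the 4 groups, with overlapping intervals. At day 11 it went from 0.816 CPM (8 UMIs; 0.352 to 1.61) to 2.63 CPM (18 UMIs; 1.56 to 4.15) in the highest group. Across single cells the rank correlation of EYFP with Cx3cr1, both per non-reporter UMIs, was 0.272 over 1691 cells at steady state and 0.189 over 4375 cells at day 11. The same for TdTomato was 0.036 and 0.05. Such sparse counts share each cell's depth, and these weak values are descriptions.

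**Figure D3:**
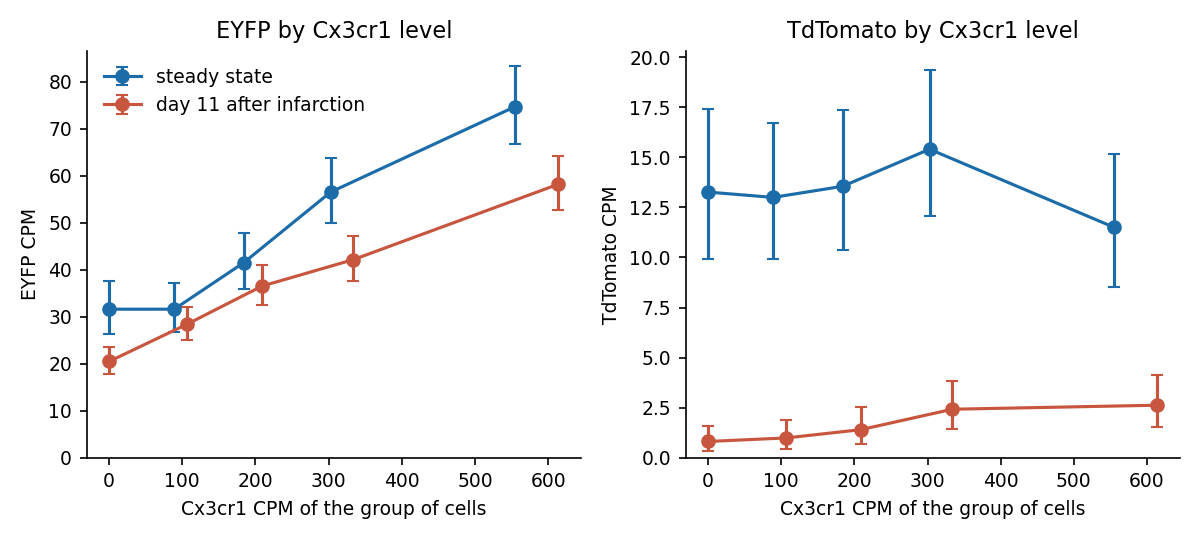
EYFP (left) and TdTomato (right) in CPM against the Cx3cr1 level of the same cells, for cells with no Cx3cr1 UMI and 4 groups of equal size of the rest; bars are exact 95% counting intervals. EYFP goes from 31.6 to 74.7 CPM at steady state and from 20.5 to 58.2 CPM at day 11, while TdTomato at steady state stays between 11.5 and 15.4 CPM.

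The same relation was seen as co-detection in single cells. Cx3cr1 was found in 85.8% of the 664 cells with EYFP at steady state (83.0 to 88.4) and in 65.4% of the cells without (62.4 to 68.3), at median depths of 13237 and 9725 UMIs. At day 11 the shares were 84.4% of 1095 cells (82.1 to 86.5) and 65.8% (64.2 to 67.4), at depths of 9508 and 7774 UMIs. After thinning to 3000 UMIs, 7.06% of steady-state cells had both transcripts, where the product of the single shares is 5.66%, a ratio of 1.25. At day 11 it was 5.55% against 4.49%, a ratio of 1.24. Expected numbers summed over 5 groups by depth gave ratios of 1.10 and 1.14. For EYFP with TdTomato at steady state, 92 cells had both where the depth groups gave 97.0, and the thinned ratio was 0.851. At day 11, 17 cells had both where 17.2 were due by depth. For Cx3cr1 with TdTomato at steady state, 177 cells had both where 176 were due. At day 11, 53 cells had both where 45.4 were due.

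By combination, 34.4% of steady-state cells had Cx3cr1 alone, 28.6% Cx3cr1 with EYFP, 18.7% none of Cx3cr1, EYFP and TdTomato, and 5.14% all 3. At day 11 the shares were 48.5, 20.7, 25.4 and 0.389%. Cells with all 3 were the deepest, with medians of 19002 and 12501 UMIs, and those with none had medians of 8155 and 7091. Of the 23 CreERT2 cells at steady state, 20 had Cx3cr1, 10 had EYFP and 5 had TdTomato. Of the 25 at day 11, 20 had Cx3cr1, 7 had EYFP and 0 had TdTomato. With so few cells, the intervals of the Cx3cr1 and EYFP shares (66.4 to 97.2% and 23.2 to 65.5% at steady state) include the shares in cells without CreERT2, 73.3 and 39.2%.

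Among compartment clusters with at least 30 cells, Cx3cr1 and EYFP were both highest in cluster 1 in each library that measured them. This cluster is led by Mmp13, Lilra5, a leukocyte receptor gene, and Hspa1a, a heat shock gene, and it met no marker list. Its Cx3cr1 level was 309 CPM in the steady-state cells (291 to 328), 329.5 in the day 11 cells (312 to 348) and 363 among those of the macrophage and DC library (329 to 399), and its EYFP level 83.7 (74.6 to 93.6) and 64.6 CPM (57.1 to 72.9). Intervals of the next clusters did not reach these. At steady state the order of Cx3cr1 went on with cluster 12 (monocyte genes Plac8, Chil3 and Ace) at 264 CPM, cycling cluster 8 at 234 and resident-like cluster 0 at 210.3, neighbours whose intervals overlap, and ended with cluster 6 (Ccr2) at 118 CPM (93.6 to 146). At day 11 the lowest were lipid-associated-like cluster 3 (Gpnmb, Ctsd) at 159 CPM (149.7 to 168) and cluster 10 (Spp1, Arg1) at 120.0 CPM (108 to 133). Clusters 8, 5, 12, 2, 0, 4, 13 and 6 lay between at 174 to 287 CPM, each overlapping with the next. Cluster 5, led by Ms4a7, Fcrls and Olfml3, was at 275 CPM. By the same lists cluster 5 was lipid-associated-like too, with 3 list genes (Ctsd, Syngr1 and Trem2) among its leading genes. So was cluster 10, with the list genes Spp1, Arg1 and Fabp5. Clusters of that name thus lay at both the low and the higher Cx3cr1 levels.

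EYFP had a similar order. At day 11 it was lowest in cluster 10 at 22.9 CPM (17.8 to 28.9), and its next highest level after cluster 1 was 45.6 CPM in cluster 5 (38.9 to 53.1). Across the 11 clusters of the day 11 compartment the correlation of EYFP with Cx3cr1 was 0.834 (Pearson) and 0.855 (Spearman), and that of TdTomato with Cx3cr1 0.723 and 0.733. Across the 5 clusters at steady state the values were 0.766 and 0.900 for EYFP and 0.771 and 0.7 for TdTomato, both positive although the groups of cells by Cx3cr1 showed no such order for TdTomato. These points share 1 library and its depth differences, and are few. The highest TdTomato levels at day 11 were 4.30 CPM in cluster 0 (11 UMIs), 3.89 in cluster 1 (16), 3.35 in cluster 12 (3) and 2.74 in cluster 8 (7). Each cluster's interval overlaps with the next in this order. These clusters also held 944, 391, 96 and 155 steady-state cells, and cluster 6 held 63. TdTomato was at 0.276 CPM in cluster 3 (2 UMIs; 0.0335 to 0.998) and at 0.331 in cluster 10 (1 UMI; 0.00839 to 1.85). In clusters 6 and 13, the latter led by interferon-response genes, no UMI was found, for which the floor of 3 UMIs is 1.80 and 2.51 CPM and the exact upper bound 2.21 and 3.09 CPM. Outside the compartment, cDC2-like cells of the day 11 library had Cx3cr1 at 72.7 CPM (54.9 to 94.4) and those of the macrophage and DC library at 21.1 CPM (16.2 to 27.1), and the day 11 cells had EYFP at 19.5 CPM (10.9 to 32.1).

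**Figure D4:**
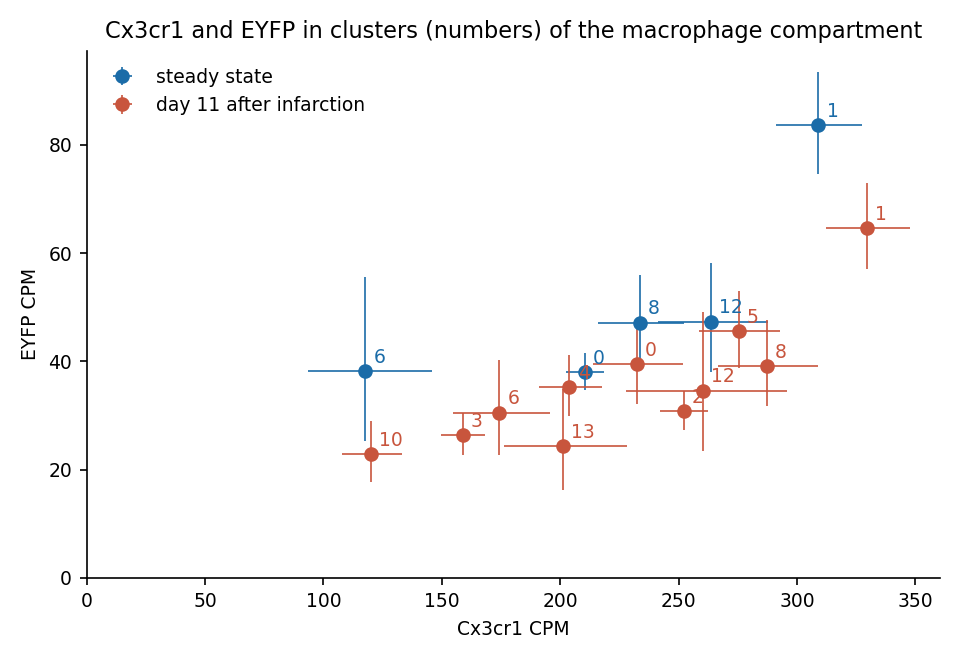
EYFP against Cx3cr1 level in CPM for each cluster of the compartment with at least 30 cells in a library; numbers are clusters and bars exact 95% counting intervals. Cluster 1 lies at the top right in both libraries, at 309 and 83.7 CPM at steady state and 329.5 and 64.6 CPM at day 11, and cluster 10 at the lower left.

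Marker status was read from RNA, with and without a UMI of Timd4, the monocyte chemokine receptor Ccr2, the lysosomal glycoprotein Gpnmb, or Ly6c2, which marks classical monocytes. Cells with a marker UMI are deeper by construction, for example 13724 against 8552 UMIs for Timd4 at steady state. Shares of all genes beside these ratios are over genes with at least 50 CPM on either side, which TdTomato and CreERT2 do not reach and EYFP reaches only in steady-state cells without Timd4, so they are not shares of genes at the same level. EYFP at steady state was at 39.6 CPM in the 942 cells with Timd4 and 62.6 CPM in the 749 without, a ratio of 0.633 (0.560 to 0.717). It was the only 1 of the 4 transcripts past 1.5-fold lower, as were 1.18% of 2703 genes, and none was 1.5-fold higher, as 1.96% were. The ratio was 0.571 within cluster 0 (0.471 to 0.695), 1.09 within cluster 1 (0.853 to 1.4) and 0.912 in the other clusters (0.709 to 1.18). Cluster 1, with its high EYFP, held 306 of the 749 cells without Timd4 and 85 of the 942 with it. At day 11 EYFP was at 35.0 and 35.6 CPM with and without Timd4 (0.984; 0.819 to 1.17), and from 2 Timd4 UMIs on the ratio was 0.742 (0.543 to 0.993). None of the 4 was 1.5-fold lower there, as 2.43% of 2675 genes were. By Timd4, Cx3cr1 was at 222 against 245 CPM at steady state (0.906; 0.856 to 0.960). At day 11 it was at 247 against 224 CPM (1.10; 1.03 to 1.18), or 0.951 (0.851 to 1.06) when Timd4 status was read after thinning. The macrophage and DC library had it at 139 against 179 CPM (0.777; 0.635 to 0.943), where 16.1% of 2460 genes were 1.5-fold higher and 6.91% lower. Within cluster 0 the ratios of the 3 libraries were 0.919 (0.840 to 1.01), 0.850 (0.721 to 1.00) and 0.559 (0.405 to 0.766). Outside it they were not below 1, at 1.14 (1.00 to 1.29) in cluster 1 and 1.09 (0.970 to 1.22) in the other clusters at steady state, and 1.22 (1.12 to 1.33) without clusters 0 and 1 at day 11.

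TdTomato at day 11 was higher in cells with Timd4, at 4.35 CPM (17 UMIs in 327 cells) against 1.27 CPM (47 UMIs in 4048 cells), a ratio of 3.43 (1.85 to 6.08). The thinned shares were 1.85 and 0.410%. It was the only 1 of the 4 past 1.5-fold higher, and 5.23% of 2675 more abundant genes were. Alternatives gave ratios of 3.42 to 4.67. Within cluster 0, with 8 and 3 UMIs, the ratio was 2.08 (0.498 to 12.2). At steady state TdTomato was at 11.5 CPM in cells with Timd4 and 16.9 CPM in those without (0.682; 0.539 to 0.865). That direction rested on the 7 cells with at least 4 TdTomato UMIs, of which 1 had Timd4. Without them the ratio was 1.02 (0.780 to 1.35), and with Timd4 status read after thinning it was 1.31 (1.01 to 1.69), so no direction is given.

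By Ccr2, Cx3cr1 was at 257 against 192 CPM at steady state (1.34; 1.26 to 1.42) and 237 against 214 CPM at day 11 (1.11; 1.06 to 1.15). The macrophage and DC library had 146 against 218 CPM (0.668; 0.590 to 0.757). No member passed 1.5-fold by Ccr2, while 0.814 and 0.777% of genes were higher and lower at steady state, 1.80 and 1.41% at day 11 and 7.07 and 17.0% in the macrophage and DC library. The ratio of that library became 1.07 (0.936 to 1.21) without cluster 11, where Ccr2 was at 574 CPM. The steady-state difference was also present within cluster 0 (1.45; 1.34 to 1.57) and, smaller, within cluster 1 (1.16; 1.02 to 1.32). At day 11 the ratio was 1.02 (0.977 to 1.06) with Ccr2 status read after thinning. EYFP was nearly level by Ccr2, with ratios of 1.08 (0.951 to 1.22) and 1.03 (0.923 to 1.14). TdTomato at steady state was at 11.5 against 16 CPM by Ccr2 (0.722; 0.571 to 0.912), or 0.446 (0.243 to 0.825) without clusters 0 and 1. The ratio was 0.95 (0.730 to 1.23) with Ccr2 status read after thinning and 0.919 (0.642 to 1.30) in cells with 5000 to 15000 UMIs. At day 11 it was 0.972 (0.577 to 1.65). Cells with both Timd4 and Ccr2 at steady state had Cx3cr1 at 258 CPM (247 to 269), and those with Timd4 alone at 173 CPM (162 to 183). Those with Ccr2 alone were at 255 CPM (241 to 271) and those with neither at 230.5 CPM (214 to 248). Median depths in the same order were 18537, 10378, 10072 and 7464.5 UMIs. Within cluster 0 the deeper steady-state cells had more Cx3cr1 than the shallower ones, at 235 against 149.6 CPM. The part of depth in these levels and in the cluster 0 ratio by Ccr2 was not tested. EYFP in the same order was at 42.7 (38.4 to 47.3), 35.4 (30.9 to 40.5), 60.9 (53.9 to 68.7) and 64.8 CPM (56.2 to 74.3). It was thus lower in both sets with Timd4 than in both sets without, a difference seen within cluster 0 but not within cluster 1. By value, EYFP was higher with Ccr2 among cells with Timd4 and lower with Ccr2 among cells without Timd4.

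By Gpnmb at day 11, where 1327 cells had it, Cx3cr1 was at 200.03 against 241 CPM (0.829; 0.793 to 0.866) and EYFP at 28.4 against 39.5 CPM (0.718; 0.639 to 0.805). Both ratios were also below 1 without clusters 0 and 1, at 0.857 (0.817 to 0.898) and 0.764 (0.672 to 0.867). At steady state, with 78 such cells, they were 0.978 (0.871 to 1.09) and 0.704 (0.517 to 0.938). None of Cx3cr1, EYFP and TdTomato passed 1.5-fold, while 1.17 and 0.511% of genes were higher and lower at steady state and 2.11 and 2.42% at day 11. By Ly6c2 at day 11, Cx3cr1 was at 175 against 230.1 CPM (0.759; 0.688 to 0.834) and EYFP at 32.7 against 35.7 CPM (0.916; 0.726 to 1.14). At steady state the Cx3cr1 ratio was 1.08 (0.992 to 1.17). TdTomato had 1 UMI in the 216 day 11 cells with Ly6c2 and 63 in the other 4159 (0.238; 0.00592 to 1.37), and at steady state it was at 8.58 against 14.0 CPM (0.611; 0.381 to 0.937), or 0.756 (0.470 to 1.16) without the 7 cells. It was the only 1 of the 4 past 1.5-fold by Ly6c2, in both libraries, beside 1.36% of genes higher and 0.442% lower at steady state and 4.32 and 2.08% at day 11. Among cells sorted with DCs, of which 31 had Ly6c2, Cx3cr1 was at a ratio of 0.975 (0.692 to 1.34), beside 12.4 and 16.9% of genes. CreERT2 had too few UMIs to be read by marker.

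**Figure D5:**
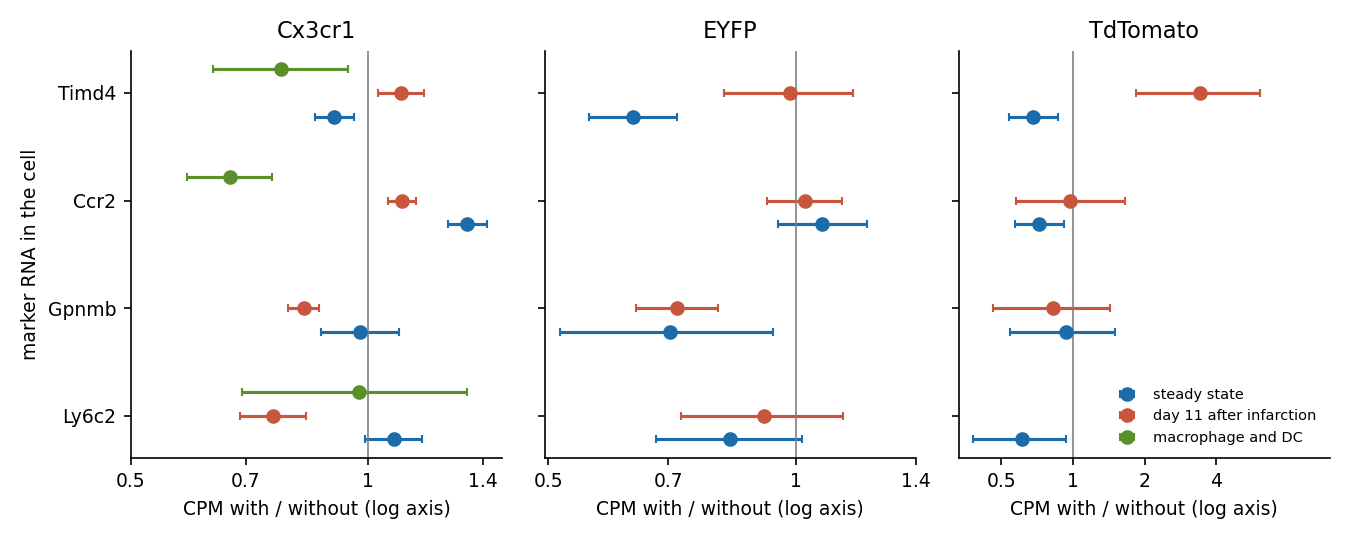
Ratio of the level (CPM) in cells with a marker UMI to that in cells without, on a log axis, for Cx3cr1, EYFP and TdTomato in each library; bars are exact 95% counting intervals, and comparisons with fewer than 30 cells or at most 3 UMIs are left out. EYFP by Timd4 is at 0.633 at steady state and 0.984 at day 11, and TdTomato by Timd4 at 0.682 and 3.43, the first of which rests on 7 cells.

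Few genes differed between cells with and without Cx3cr1 once status was read after thinning to 3000 UMIs. Of 2114 genes with at least 50 CPM on either side in every library, 0 were at least 1.5-fold higher in cells with Cx3cr1 in all 3 libraries (0%) and 2 at least 1.5-fold lower (0.0946%). These were Fabp5, a fatty acid carrier, at 36.5 against 85.3 CPM at steady state, 239 against 473 at day 11 and 52.1 against 92.7 in the macrophage and DC library, and Retnla, a secreted protein of alternatively activated macrophages, at 830.2 against 1353, 38.3 against 77.9 and 2687 against 10641 CPM. In the last library 189 of 962 compartment cells were of cluster 11, which is led by Retnla and had Cx3cr1 at 46.1 CPM. Its part in the Retnla difference was not tested. By EYFP, 1 of 2434 genes was higher in both libraries (0.0411%), Plac8, a monocyte gene, at 191 against 116 CPM at steady state and 200.9 against 125 CPM at day 11. The 5 lower (0.205%) were Retnla, Fabp5, the chemokine Ccl24, the hyaluronan receptor Lyve1 and Vat1. Retnla was at 509.9 against 1210.1 CPM at steady state and 12.0 against 65.4 CPM at day 11, and Lyve1 at 253 against 419 and 37.3 against 58.1 CPM. By TdTomato, 3 of 2491 genes were higher (0.120%) and 7 lower (0.281%), with only 20 thinned day 11 cells on the positive side. Spp1, which codes for osteopontin, had the largest smaller fold of both libraries, at 19.3 against 93.3 CPM and 246 against 974 CPM. Plac8 differed more at day 11 alone, at 12.0 against 133 CPM, beside 44.5 against 129 CPM at steady state. The 12.0 CPM comes from those 20 cells and rests on very few UMIs, so the size of this difference is uncertain. Another random draw of the thinning gave 1 in place of 2 lower genes for Cx3cr1, and 0 higher and 3 lower for EYFP.

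Across the 20 groups made of a compartment cluster in a library with at least 30 cells, the genes whose level was most like that of Cx3cr1 were Lair1, Ythdc1, Nipbl, Mef2a, Filip1l, Ccnl1, Gpr65, Col14a1, Stk17b and Rsbn1l. Likeness was the Pearson correlation of log2(CPM + 10), from 0.901 for Lair1, an inhibitory collagen receptor, to 0.839 for Rsbn1l. Lair1 was at 241 CPM in cluster 1 and 140.2 CPM in cluster 6 at steady state, and at 12.6 CPM in cluster 11. Gpr65, a proton-sensing receptor, was at 132, 21.2 and 11.0 CPM in the same groups. Over the 16 groups of the reporter libraries the value for EYFP was 0.675, and 75 of 3505 genes had a higher one, while TdTomato was at 0.389 with 649 genes above. The groups share libraries and depth, so these are descriptions.

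The other genes of the fractalkine pathway lay on both sides of 1 in their ratio of day 11 to steady state, from 0.739 for Arrb1, an arrestin, to 2.11 for Pik3r5. The list held 21 genes (ligand, sheddases, G protein subunits, arrestins and signalling kinases), all measured, of which 18 passed the minimum. Of these, 1 was at least 1.5-fold higher and 0 lower, beside 3.92 and 6.67% of all genes, and their median log2 ratio was -0.01 against -0.06 over 5325 genes. The 1 was Pik3r5, a regulatory subunit of the PI3 kinase activated by G proteins, at 33.8 against 16 CPM (2.11; 1.88 to 2.38). The sheddases Adam10 and Adam17, which release the ligand from membranes, were at 54.3 against 44.3 CPM (1.23) and 66.7 against 48.1 CPM (1.39). Gnai2, the G protein subunit through which chemokine receptors signal, was at 846 against 970.5 CPM (0.871; 0.857 to 0.886). The ligand Cx3cl1 was close to absent from these cells, at 0.991 CPM at steady state, 0.366 at day 11 and 0.169 in the macrophage and DC library. In that library, 0 of 17 genes were 1.5-fold higher and 5 lower, beside 4.02 and 24.5% of 5254 genes. The 5 were Gnai2 (0.570), Arrb1 (0.626), Adrbk1 (0.596), Pik3cg (0.571) and Bcl2l1 (0.462).

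Of the 6 protein-coding genes next to the locus, 3 were under 1 CPM in every library. Toward lower coordinates, Xirp1, 25.1 kb away, was at 0.315, 0.171 and 0.338 CPM in the order steady state, day 11, macrophage and DC library. Csrnp1, 64.0 kb away, was at 8.92, 8.91 and 8.63 CPM, and Ttc21a had no UMI. Toward higher coordinates, the chemokine receptor gene Ccr8, 23.8 kb away, was at 0, 0.0244 and 0 CPM, Slc25a38 at 11.4, 12.3 and 14.0 CPM, and the ribosomal protein gene Rpsa at 1146, 1207 and 1674 CPM. Rpsa has processed copies elsewhere in the genome with which its reads could be shared. Gt(ROSA)26Sor, the non-coding gene on chromosome 6 at the locus that carries the tdTomato allele, was at 33.3, 27.9 and 36.4 CPM. Its ratio of day 11 to steady state, 0.836 (0.762 to 0.918), was nearer to 1 than that of TdTomato.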

How the data were processed

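The deposited tables are raw counts of UMIs, which the authors made with Cell Ranger and STAR on mm10, per the submitters' processing notes. Versions were not given in the sources used here. Libraries held 23711707, 45177529 and 14388327 UMIs (steady state, day 11, macrophage and DC). Cells with at least 500 genes and at most 10% mitochondrial UMIs were kept. The barcodes with the highest Scrublet scores, 0.8% per 1000 barcodes, were removed as doublets (25, 175 and 25), which leaves some in. Scanpy 1.11.5 and leidenalg 0.10.2 gave 21 clusters (2000 variable genes without the 4 transcripts, 30 components, 15 neighbours, resolution 1.0). A cluster was named from at least 3 of its 10 top genes. The Csf1r minimum was set after its values were seen. CPM is over non-reporter UMIs. Intervals are Clopper-Pearson, Poisson or conditional binomial, and treat UMIs as independent. Functions were tested on simulated data.

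The members and lists were chosen with earlier results of these data known. Genes were named by rule: by transcript status, up to 10 per direction with the largest smaller fold; by likeness to Cx3cr1, the 10 highest; mitochondrial, ribosomal, immunoglobulin, haemoglobin, unnamed and sex-linked genes were left out, and list members may be named. The planned 5 equal groups by Cx3cr1 could not be made because too many cells had none, so 4 groups of the rest were used. Alternatives changed doublets, cells, averaging, depth, thinning, status, filter, fold, seed and resolution. The reporter sequences were not used here.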

Additional observations from a re-analysis of the deposited data

Results flagged for a closer look

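In 3 comparisons by marker status, libraries lay on opposite sides of 1 with counting intervals that exclude 1, and the difference between libraries was not tested because each is 1 library. Cx3cr1 in cells with Timd4 over cells without was 1.10 in the day 11 library (1.03 to 1.18), 0.906 in that of steady state (0.856 to 0.960) and 0.777 among the cells sorted with DCs (0.635 to 0.943). Within cluster 0 the values were 0.850 (0.721 to 1.00), 0.919 (0.840 to 1.01) and 0.559 (0.405 to 0.766), and without clusters 0 and 1 they were 1.22 at day 11 (1.12 to 1.33) and 1.09 at steady state (0.970 to 1.22). TdTomato in cells with Timd4 over cells without was 3.43 at day 11 (1.85 to 6.08) and 0.682 at steady state (0.539 to 0.865), and the second value became 1.02 without the 7 cells with at least 4 TdTomato UMIs. Cx3cr1 in cells with Ccr2 over cells without was 1.34 in the steady-state library (1.26 to 1.42), 1.11 in that of day 11 (1.06 to 1.15) and 0.668 among the cells sorted with DCs (0.590 to 0.757), the last 1.07 without cluster 11.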

How the results depend on the processing

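No paired analysis was possible because each group has 1 library. Of 361 alternative values for 60 results, 299 lay within the counting interval of the reported value or within 1.5 times the reported count, 56 moved further and 6 changed direction. Alternatives that left out cluster 11 or cells with very many UMIs of a transcript were chosen after seeing the data. The ratios of EYFP, TdTomato and CreERT2 between day 11 and steady state stayed within their intervals under every alternative run. The Cx3cr1 ratio was 0.949 with all filtered cells, 1.08 as a mean of per-cell CPM and 1.12 in cells with 5000 to 15000 UMIs. For the macrophage and DC library it was 0.343 with all filtered cells, which include its DCs, 0.703 at a clustering resolution of 0.5, 1.02 as a mean of per-cell CPM and 1.00 without cluster 11. Its thinned share differed from steady state by -8.01 percentage points, and by -22.0 with all filtered cells, -19.5 and -1.78 when thinned to 5000 and 1500 UMIs and -1.41 without cluster 11. The TdTomato share at day 11 differed by -3.20 points, and by -5.14 and -1.71 when thinned to 5000 and 1500 UMIs. EYFP in the highest of the 4 Cx3cr1 groups over cells with none was 3.07 at steady state in cells with 5000 to 15000 UMIs. By Timd4 from 2 UMIs, EYFP was 0.550 at steady state and 0.742 at day 11. TdTomato by Timd4 at steady state was 1.31 with status after thinning and 1.02 without its 7 highest cells. Cx3cr1 by Timd4 at day 11 was 0.951 with status after thinning, and by Ccr2 in the macrophage and DC library 1.07 without cluster 11. Genes lower by Cx3cr1 status numbered 0 at 2-fold and 1 with another seed. Genes higher by EYFP status numbered 2 with a 20 CPM filter, 0 at 2-fold and 0 with another seed, and genes lower 9, 1 and 3. Genes higher by TdTomato status numbered 29, 0 and 1, and genes lower 55 with a 20 CPM filter and 4 at 2-fold. With no filter on low values, 2 pathway genes were higher and 1 lower at day 11. Except where an alternative uses fewer cells, more genes or a higher fold by construction, the cause was not tested. Depth limits CreERT2, with 24 and 25 UMIs, and day 11 TdTomato, with 64.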

Other observations

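The cell with most Cx3cr1 UMIs lay outside the macrophage compartment, in the B-like cluster 16 of the steady-state library. It held 131 of the 231 Cx3cr1 UMIs in the cluster's 28 cells there, so their level of 567 CPM (497 to 645) rests mostly on this cell. Those 131 were 1.59% of its 8257 UMIs. The cell had 0 EYFP and 0 TdTomato UMIs, 6 UMIs each of the B cell genes Cd79a and Cd79b, 30 of C1qa and 4 of Csf1r. The next cell of that library, in cluster 0, held 58 Cx3cr1 UMIs of 35220, with 1 EYFP UMI. The highest counts in kept cells of the day 11 and macrophage and DC libraries were 24 and 19.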
